A study of Mus musculus with 8 samples.

Results

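Plk2, Gdf15 and 8 other genes known as targets or partners of the transcription factor p53 were followed through 8 libraries of primary mouse microglia, the resident macrophages of the brain. The 10 genes are Plk2, Plk3, Cdkn1a, Mdm2, Ccng1, Gdf15, Btg2, Sesn1, Trp53inp1 and Trp53, out of 54419 gene models in the deposited table. They were chosen by name, and Plk2 and Gdf15 lead the set because they differed with oxygen-glucose deprivation (OGD) in these same libraries. The comparisons with and without OGD are therefore a description of the 10 genes, with no p-value. Each gene had 1 model under its exact name.

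The cells came from C57BL/6 mice at postnatal day 2, and the titles form 4 groups of 2 libraries. OGD_PARP14 carried a CRISPR-activation plasmid directed at Parp14 for 24 h and then underwent OGD, a culture model of ischaemia, for 6 h. OGD_Con carried the control plasmid and underwent OGD, PARP14 carried the activation plasmid without OGD in its title, and Con carried the control plasmid without OGD in its title. All 4 groups were thus transfected, and none was left without plasmid. In the protocol text OGD is stated without exception for the samples, so the groups were taken from the titles. The series text speaks of 2 independent experiments, but nothing in the labels ties a replicate number to an experiment. P-values therefore reflect only how far these libraries lie apart, and that spread may be technical.

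p53, the product of Trp53, is a tetrameric transcription factor that is kept scarce in unstressed cells by the ubiquitin ligase Mdm2 and accumulates after DNA damage and other stress. Its targets include the cell cycle inhibitor Cdkn1a (p21), Mdm2 itself, the cyclin Ccng1, the polo-like kinases Plk2 and Plk3, the antiproliferative factor Btg2, the sestrin Sesn1, which restrains mTORC1, and Trp53inp1, which acts in cell death and autophagy. Gdf15 encodes a secreted cytokine of the TGF-beta superfamily that many stresses induce, through p53 in some settings and through the integrated stress response in others. In microglia and other macrophages several of these genes, Btg2, Plk3 and Cdkn1a among them, also respond to signals other than p53. p53 protein was not measured here.

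Promoter sequences of Plk2, Gdf15 and Btg2, which had the largest OGD differences in log2(FPKM + 1), and of Cdkn1a, the best studied target of p53, are shown so that the motifs they hold can be set side by side. They are RefSeq sequences of build GRCm38.p6, each running from 250 bases before to 50 bases after an annotated start, and capitals mark motif matches.
Plk2, chr13:110394794-110395093, plus strand: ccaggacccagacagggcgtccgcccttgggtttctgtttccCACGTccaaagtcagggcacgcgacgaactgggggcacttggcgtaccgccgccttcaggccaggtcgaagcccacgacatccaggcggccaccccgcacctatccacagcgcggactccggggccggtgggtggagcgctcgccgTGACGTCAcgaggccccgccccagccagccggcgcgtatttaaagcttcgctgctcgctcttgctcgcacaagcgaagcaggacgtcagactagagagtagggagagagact
Gdf15, chr8:70632407-70632706, minus strand: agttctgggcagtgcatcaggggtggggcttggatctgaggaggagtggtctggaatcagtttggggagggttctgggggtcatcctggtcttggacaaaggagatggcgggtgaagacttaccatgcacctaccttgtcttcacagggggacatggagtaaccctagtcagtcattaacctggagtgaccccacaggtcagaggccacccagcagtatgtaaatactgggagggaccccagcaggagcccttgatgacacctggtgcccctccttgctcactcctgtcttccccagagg
Gdf15 inner start, chr8:70632046-70632345, minus strand: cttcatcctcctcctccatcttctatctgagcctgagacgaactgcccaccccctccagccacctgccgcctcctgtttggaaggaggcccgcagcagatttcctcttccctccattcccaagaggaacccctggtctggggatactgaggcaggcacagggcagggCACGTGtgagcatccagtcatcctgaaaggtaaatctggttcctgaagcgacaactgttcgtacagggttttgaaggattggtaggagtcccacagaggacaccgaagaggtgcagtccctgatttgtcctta
Btg2, chr1:134079106-134079405, minus strand: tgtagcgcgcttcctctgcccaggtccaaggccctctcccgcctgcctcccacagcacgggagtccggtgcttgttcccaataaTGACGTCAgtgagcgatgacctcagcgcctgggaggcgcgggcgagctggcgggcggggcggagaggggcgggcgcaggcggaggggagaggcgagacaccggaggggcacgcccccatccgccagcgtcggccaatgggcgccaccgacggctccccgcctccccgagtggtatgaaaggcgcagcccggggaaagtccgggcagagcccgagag
Cdkn1a upstream start, chr17:29090729-29091028, plus strand: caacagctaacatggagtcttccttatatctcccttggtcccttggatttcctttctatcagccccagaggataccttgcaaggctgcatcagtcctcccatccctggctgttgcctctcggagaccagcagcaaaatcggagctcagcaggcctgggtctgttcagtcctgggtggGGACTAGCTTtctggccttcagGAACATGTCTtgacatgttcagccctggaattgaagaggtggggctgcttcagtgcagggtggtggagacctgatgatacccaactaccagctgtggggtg

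The motifs searched on both strands were the 10-letter p53 half-site, by name, the hypoxia-inducible factor core ACGTG, the cyclic AMP response element TGACGTCA and the ATF4-type element TGATGNAA. CACGTG counts as a match to ACGTG on both strands, and no other pair of these motifs overlapped in the windows shown. The Plk2 window held TGACGTCA 62 bases before its start and the ACGTG core further upstream, and no p53 half-site. The upstream Cdkn1a window held 2 p53 half-sites, 73 and 51 bases before that start. The window of the other Cdkn1a start, 2790 bases further downstream and not shown, held none of the 4 motifs. The Btg2 window held TGACGTCA 166 bases before the start. The outer Gdf15 window held none of the 4 motifs, and the inner one held CACGTG.

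Sequences were found for 9 of the 10 genes, in 12 windows. Besides Cdkn1a, the p53 half-site was matched in a window of Mdm2, Ccng1, Sesn1 and Trp53, so that 5 of the 12 windows held it, against 8.36% of all 32851 promoter windows. The ACGTG core was matched in 3 of the 12 windows, those of Plk2, Gdf15 and Trp53, against 19.6% of all windows. TGACGTCA was matched in 2 of the 12, against 1.79% of all windows, and TGATGNAA in none, against 3.97%. A match describes the letters of these windows and is not evidence of binding, and p53 sites outside the windows were not searched.

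The libraries held an estimated 13.4 to 17 M fragments each, and 10446 to 10662 models reached 1 FPKM (fragments per kilobase of model, scaled to the mapped fragments). The Parp14 model, listed as Gm49730 with 3 of its 4 transcripts from Parp14, held 55.8 and 54.6 FPKM in the libraries labelled OGD_PARP14, 12.5 and 53.7 in OGD_Con, 12.2 and 11.5 in PARP14, and 61.4 and 50.7 in Con. It was lower in both libraries labelled PARP14 than in both labelled Con, against the label, and under OGD the library labelled OGD_Con replicate 2 was close to both labelled OGD_PARP14. Group names below follow the labels, and any plasmid difference depends on those labels being right. The library labelled OGD_PARP14 replicate 2 stood apart, with a Pearson correlation of 0.880 to 0.903 with the others over 11146 tested models, against at least 0.945 between any pair of the other 7. Results that rest on it are given with and without it. Of 10 microglial marker genes 9 were at 1 FPKM or more in every library, and Trem2 was listed at 0. The summed marker level was 2435 FPKM in OGD_PARP14 replicate 2 and 3065 to 4232 FPKM in the other libraries. Summed over each list, astrocyte markers held 3.80 FPKM in that library and 4.25 to 5.70 in the others, neuronal markers 2.32 and 3.18 to 4.08, and oligodendrocyte lineage markers 11.1 and 6.15 to 7.06. Endothelial markers held 0.281 FPKM there and 4.38 to 7.06 elsewhere, fibroblast and mural markers 0.442 and at most 0.190, and other leukocyte markers 1.09 and at most 0.620, with Cd3e and Ly6g listed at 0. The endothelial sum was mostly Pecam1, at 0.159 FPKM there and 4.25 to 6.97 elsewhere. Cldn5 and Cdh5 were at most 0.122 FPKM in every library. Of the astrocyte, neuronal and oligodendrocyte lineage lists, 1 gene each was at 1 FPKM or more in every library. The part of these marker differences in the results below was not tested. In these bulk samples fewer cells of a type and less RNA per cell cannot be told apart.

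The 10 genes did not move as a block with OGD. Plk2 and Gdf15 were several-fold higher in every library labelled OGD, Trp53inp1, Mdm2 and Cdkn1a were modestly higher, Btg2, Plk3, Sesn1 and Trp53 were lower, and Ccng1 kept its level in all but 1 library. Thus 5 of the genes had all 4 OGD libraries above all 4 others and 4 had them below. The same count over all models was not made. Nothing is read from the count of members, because the set was led by genes known to differ with OGD here. The plot of FPKM by library shows each value.

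**Figure D1:**
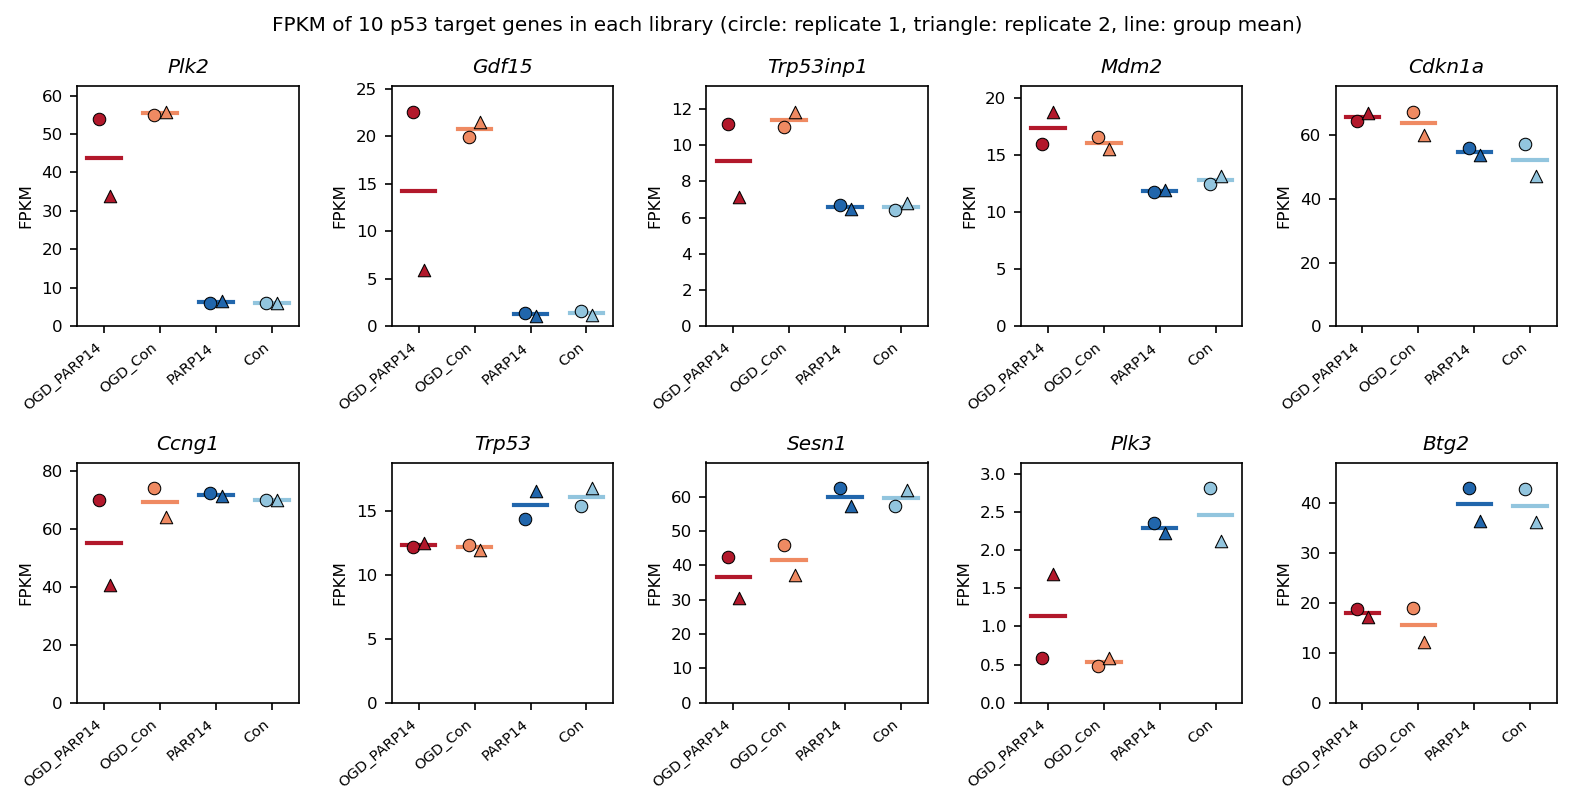
FPKM (vertical axes, each from 0) of the 10 genes in each of the 4 groups. Circles are replicate 1, triangles are replicate 2 and lines are group means. Plk2 lies between 33.8 and 55.8 FPKM in the OGD libraries and at most at 6.45 FPKM in the others, whereas Btg2 lies at 12.1 to 18.9 FPKM and at least at 36.1 FPKM.

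Plk2 held 53.9 and 33.8 FPKM in OGD_PARP14 and 6.12 and 6.45 FPKM in PARP14. It held 54.9 and 55.8 FPKM in OGD_Con and 6.10 and 5.95 FPKM in Con. The groups with and without OGD were far apart, and OGD_PARP14 replicate 2 was the lowest of the OGD libraries. The mean was 9.19-fold higher in OGD_Con than in Con. Relative to the PARP14 mean, OGD_PARP14 replicate 1 was 8.57-fold and replicate 2 was 5.37-fold higher. The Plk2 model, MSTRG.4022, occupies bases 110395046 to 110400844 of chromosome 13, plus strand (GRCm38, as for the models below), and its values without OGD rest on roughly 230 to 307 fragments.

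Gdf15 held 22.6 and 5.85 FPKM in OGD_PARP14 and 1.40 and 1.10 FPKM in PARP14. It held 19.9 and 21.5 FPKM in OGD_Con and 1.53 and 1.18 FPKM in Con. No OGD library overlapped the others, but OGD_PARP14 replicate 2 was well below the other 3. The mean was 15.2-fold higher in OGD_Con than in Con. Relative to the PARP14 mean, the replicates of OGD_PARP14 were 18.0-fold and 4.67-fold higher. The model, MSTRG.13520 at 70629393 to 70632456 of chromosome 8, minus strand, rests on about 26 to 37 fragments in each library without OGD, so those levels are imprecise.

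The profiles most like that of Plk2 over the 8 libraries were those of Bhlhe41, Cd83, Gdf15, Gas2l3 and Hilpda. The search covered 5392 models with a single name and a mean of at least 5 FPKM, leaving out predicted and clone-based names. Likeness was the root mean square difference between centred log2(FPKM + 1) profiles, and it ranged from 0.248 for Bhlhe41 to 0.455 for Hilpda. For Gdf15 the nearest were Bhlhe41 at 0.171, Slc16a3 at 0.265, Hilpda at 0.306, Plk2 at 0.329 and Gadd45a at 0.335. Slc16a3 encodes a lactate transporter, Hilpda a lipid droplet protein and Bhlhe41 a clock-related repressor, and each is known to respond to hypoxia, while Cd83 marks activated immune cells. Bhlhe41 held 19.9 and 7.68 FPKM in OGD_PARP14 and 20.8 and 25.3 in OGD_Con, against 1.94 and 1.78 in PARP14 and 1.99 and 1.56 in Con. All these profiles were lower without OGD than with it, and lower in OGD_PARP14 replicate 2 than in the other OGD libraries. That shared shape follows from choosing them for their likeness to Plk2 or Gdf15.

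The classical feedback and arrest genes were higher with OGD by small amounts. Mdm2 held 16.0 and 18.8 FPKM in OGD_PARP14 and 11.7 and 11.98 FPKM in PARP14. It held 16.6 and 15.5 FPKM in OGD_Con and 12.4 and 13.2 FPKM in Con. Its lowest OGD library was above its highest library without OGD, and OGD_PARP14 replicate 2 was the highest of all. Cdkn1a held 64.5 and 67.2 FPKM in OGD_PARP14 and 55.9 and 53.7 FPKM in PARP14. It held 67.5 and 60.1 FPKM in OGD_Con and 57.4 and 47.2 FPKM in Con. Again the groups did not overlap, although Con replicates differed by about as much as the groups did. The Cdkn1a model, MSTRG.5859 at 29090976 to 29100727 of chromosome 17, plus strand, overlaps the annotated gene AC167363.2, and the Mdm2 model, MSTRG.1564, is at 117688875 to 117710758 of chromosome 10, minus strand.

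Trp53inp1 held 11.2 and 7.11 FPKM in OGD_PARP14 and 6.68 and 6.47 FPKM in PARP14. It held 10.98 and 11.9 FPKM in OGD_Con and 6.40 and 6.81 FPKM in Con. OGD_PARP14 replicate 2 lay just above the libraries without OGD, and the other 3 OGD libraries stood clear of both. The model, MSTRG.9255, is at 11156431 to 11174379 of chromosome 4, plus strand. Ccng1 held 69.9 and 40.5 FPKM in OGD_PARP14 and 72.2 and 71.4 FPKM in PARP14. It held 74.0 and 64.2 FPKM in OGD_Con and 69.9 and 69.9 FPKM in Con. OGD_Con and Con overlapped, and OGD_PARP14 replicate 2 was far below every other library. The model, MSTRG.1866, is at 40748552 to 40755311 of chromosome 11, minus strand.

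Lower in the OGD libraries were 4 genes. Btg2, which recruits the CCR4-NOT deadenylase and slows proliferation, held 18.8 and 17.2 FPKM in OGD_PARP14 and 42.9 and 36.5 FPKM in PARP14. It held 18.9 and 12.1 FPKM in OGD_Con and 42.8 and 36.1 FPKM in Con. The groups were far apart, and OGD_PARP14 replicate 2 lay within the range of the other OGD libraries. Sesn1 held 42.5 and 30.5 FPKM in OGD_PARP14 and 62.4 and 57.2 FPKM in PARP14. It held 46.0 and 37.3 FPKM in OGD_Con and 57.2 and 61.9 FPKM in Con. All OGD libraries were below the others, with OGD_PARP14 replicate 2 the lowest. The Btg2 model, MSTRG.595, is at 134075170 to 134079120 of chromosome 1, minus strand, and the Sesn1 model, MSTRG.1144, at 41809935 to 41908424 of chromosome 10, plus strand, where it overlaps 9930024M15Rik.

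Trp53 itself held 12.2 and 12.5 FPKM in OGD_PARP14 and 14.4 and 16.6 FPKM in PARP14. It held 12.4 and 11.96 FPKM in OGD_Con and 15.4 and 16.8 FPKM in Con. The 4 OGD libraries were close together and below all others. Plk3 held 0.587 and 1.70 FPKM in OGD_PARP14 and 2.37 and 2.23 FPKM in PARP14. It held 0.485 and 0.590 FPKM in OGD_Con and 2.82 and 2.12 FPKM in Con. The polo-like kinases Plk2 and Plk3 thus differed in opposite directions, with OGD_PARP14 replicate 2 nearest to the libraries without OGD for both. Plk3 was the lowest member and reached 1 FPKM in 5 libraries, with about 18 to 110 fragments behind each value. Its model, ENSMUSG00000028680 at 117128655 to 117133963 of chromosome 4, minus strand, overlaps Tctex1d4, whose reads could be split with it, and the Trp53 model, MSTRG.2140, is at 69580359 to 69591872 of chromosome 11, plus strand.

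Since FPKM is per length, levels can be ranked between genes. In OGD_Con the order of mean FPKM was Ccng1 at 69.1 ± 6.93, Cdkn1a at 63.8 ± 5.21, Plk2 at 55.4 ± 0.604, Sesn1 at 41.6 ± 6.19, Gdf15 at 20.7 ± 1.13, Mdm2 at 16.0 ± 0.740, Btg2 at 15.5 ± 4.79, Trp53 at 12.2 ± 0.308, Trp53inp1 at 11.4 ± 0.615 and Plk3 at 0.537 ± 0.0747 (SD, n = 2). In Con it was Ccng1 at 69.9 ± 0.0256, Sesn1 at 59.5 ± 3.32, Cdkn1a at 52.3 ± 7.19, Btg2 at 39.5 ± 4.74, Trp53 at 16.1 ± 0.995, Mdm2 at 12.8 ± 0.501, Trp53inp1 at 6.61 ± 0.291, Plk2 at 6.03 ± 0.106, Plk3 at 2.47 ± 0.491 and Gdf15 at 1.36 ± 0.248 (SD, n = 2). Plk2 was thus among the 3 highest of these transcripts in OGD_Con and among the 3 lowest in Con. In OGD_Con, Ccng1 and Cdkn1a, Mdm2 and Btg2, Btg2 and Trp53, and Trp53 and Trp53inp1 were neighbours closer than the sum of their SDs, as were Sesn1 and Cdkn1a in Con.

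Fold changes were computed on log2(FPKM + 1), a scale on which low genes change less than in FPKM. The differences of OGD_PARP14 against PARP14 were 2.58 for Plk2 (SE 0.21), 2.50 for Gdf15 (SE 0.53), 0.51 for Mdm2 (SE 0.12), 0.39 for Trp53inp1 (SE 0.20) and 0.26 for Cdkn1a (SE 0.13). Below 0 were Trp53 at -0.30 (SE 0.11), Ccng1 at -0.42 (SE 0.25), Plk3 at -0.67 (SE 0.26), Sesn1 at -0.71 (SE 0.19) and Btg2 at -1.10 (SE 0.22). OGD_Con against Con gave 3.20 for Gdf15 (SE 0.53), 3.00 for Plk2 (SE 0.21), 0.71 for Trp53inp1 (SE 0.20), 0.30 for Mdm2 (SE 0.12), 0.29 for Cdkn1a (SE 0.13) and -0.02 for Ccng1 (SE 0.25). It gave -0.38 for Trp53 (SE 0.11), -0.51 for Sesn1 (SE 0.19), -1.17 for Plk3 (SE 0.26) and -1.32 for Btg2 (SE 0.22). These comparisons share no library. All 10 genes had the same sign in both, although Ccng1 in OGD_Con against Con differed by far less than its SE. The share of all models with matching signs was not computed. Nothing is read from the match, because the set was led by genes known to differ with OGD in these libraries.

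**Figure D2:**
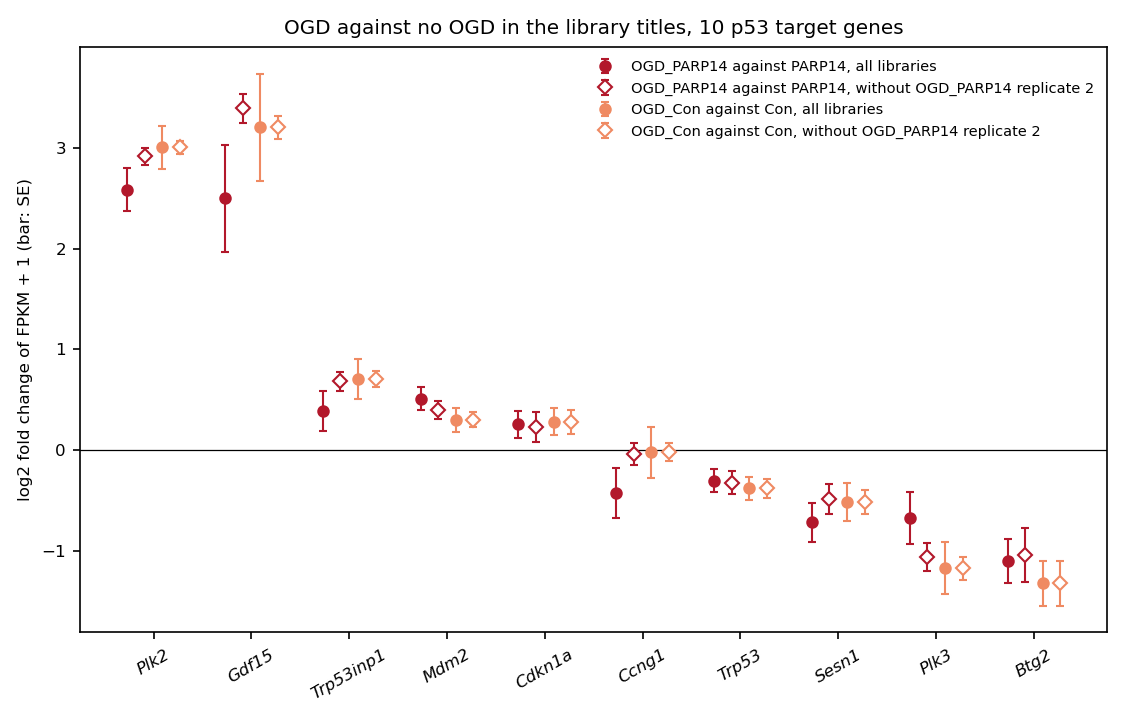
Log2 fold change of FPKM + 1 (vertical axis) for the 10 genes, in OGD_PARP14 against PARP14 and OGD_Con against Con. Filled circles use all libraries, open diamonds leave out OGD_PARP14 replicate 2, and bars are limma standard errors. Gdf15 shows the widest gap between the fits in OGD_PARP14 against PARP14, at 2.50 with all libraries and 3.39 without that replicate.

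In OGD_PARP14 against PARP14 all 10 genes had groups that did not overlap, 5 higher and 5 lower, while 40.9% of all models tested had groups that did not overlap. In OGD_Con against Con 5 were higher, 4 were lower and Ccng1 overlapped, against 66.5% of all models. Since the members were selected on these contrasts, nothing is read from these counts.

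OGD_PARP14 replicate 2 set much of the spread within OGD. It lay outside the range of the other 3 OGD libraries for 8 of the 10 genes, below it for Plk2, Gdf15, Trp53inp1, Ccng1 and Sesn1 and above it for Mdm2, Plk3 and Trp53. Across all models tested it lay outside that range for 84.1%. Relative to the mean of the 4 libraries without OGD, Gdf15 was 1.58 log2 units higher in OGD_PARP14 replicate 2 and 3.28 in the mean of the other 3 OGD libraries. The same differences were 2.28 and 2.97 for Plk2, 0.10 and 0.70 for Trp53inp1, -0.32 and -1.12 for Plk3, and -0.79 and -0.03 for Ccng1. Btg2 at -1.15 and -1.23, Trp53 at -0.31 and -0.35 and Cdkn1a at 0.33 and 0.25 hardly differed between that library and the others. Without it, OGD_PARP14 against PARP14 came to 2.91 for Plk2 (SE 0.08), 3.39 for Gdf15 (SE 0.14), 0.69 for Trp53inp1 (SE 0.09), -0.04 for Ccng1 (SE 0.11) and -1.06 for Plk3 (SE 0.14), each from a single OGD library assumed to vary like the rest.

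**Figure D3:**
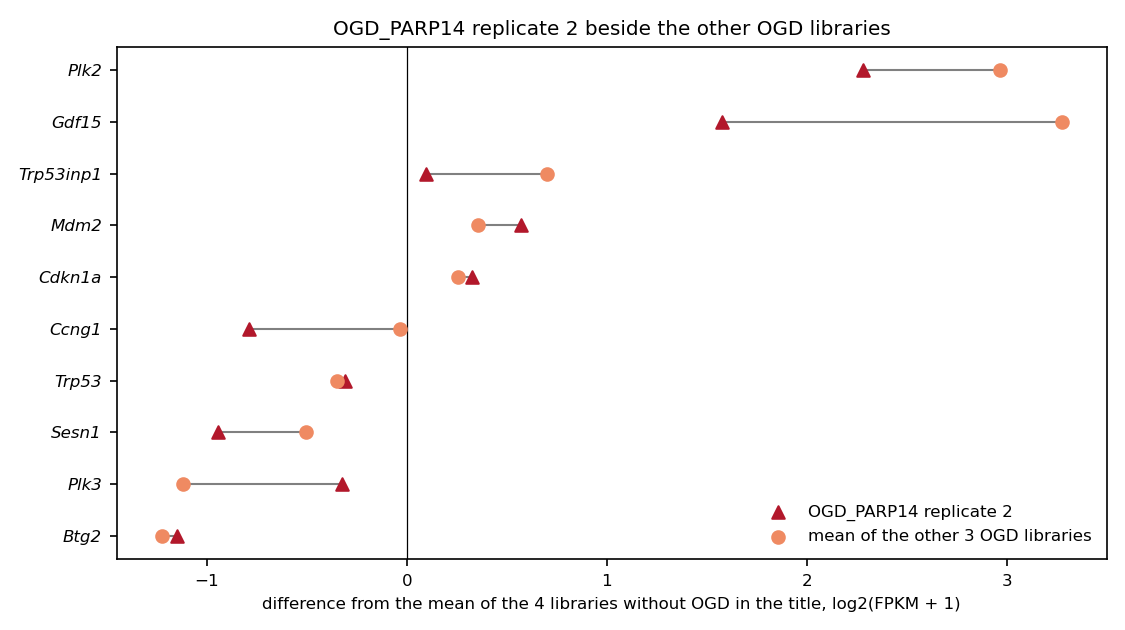
Difference in log2(FPKM + 1) from the mean of the 4 libraries without OGD in the title (horizontal axis) for each gene. Triangles are OGD_PARP14 replicate 2 and circles are the mean of the other 3 OGD libraries. Gdf15 is at 1.58 and 3.28 and Ccng1 at -0.79 and -0.03, whereas Btg2 and Trp53 nearly coincide.

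As far as the selection rule says, the plasmid comparisons were not used to choose the members. However, the members were chosen with earlier results of these data known. The plasmid comparisons also reuse the libraries in which Plk2 and Gdf15 differed with OGD. In neither plasmid comparison did limma find a member below an adjusted p of 0.05 with all libraries. In OGD_PARP14 against OGD_Con the log2 differences were -0.77 for Gdf15 (SE 0.53), -0.37 for Plk2 (SE 0.21), -0.37 for Ccng1 (SE 0.25), -0.32 for Trp53inp1 (SE 0.20) and 0.43 for Plk3 (SE 0.26), each with a limma adjusted p of 0.571. Sesn1 at -0.20, Trp53 at 0.02, Cdkn1a at 0.05, Mdm2 at 0.11 and Btg2 at 0.23 had limma adjusted p-values of 0.616 to 0.939. None of the 10 had an unadjusted p under 0.05, and 0% of all models tested passed. Plk2 was lower in both OGD_PARP14 libraries than in both OGD_Con libraries, and the other 9 genes overlapped, while 32.6% of all models did not overlap.

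These values turned on which OGD_PARP14 library was kept. Without replicate 2 the differences from OGD_Con were -0.04 for Plk2 (SE 0.08) and 0.12 for Gdf15 (SE 0.14), and those of the other 8 lay between -0.03 and 0.29. No member passed and none had an unadjusted p under 0.05 (limma adjusted p = 1 for each, beside 0.0987% of all models called). Without replicate 1, 5 members passed, beside 41.8% of all models tested. Those were Gdf15 at -1.66 (limma adjusted p = 0.00119), Ccng1 at -0.75 (0.00554), Plk2 at -0.70 (0.00302), Trp53inp1 at -0.61 (0.00623) and Plk3 at 0.81 (0.00949), each from that 1 OGD_PARP14 library.

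Without OGD the libraries labelled PARP14 and Con differed little in these genes. The log2 differences of PARP14 against Con ran from -0.10 for Mdm2 (SE 0.12) to 0.07 for Cdkn1a (SE 0.13), with 0.05 for Plk2 (SE 0.21) and -0.07 for Gdf15 (SE 0.53). The limma adjusted p was 1 for all 10, none had an unadjusted p under 0.05, and 0.00897% of all models passed. Without OGD_PARP14 replicate 2, which narrows the shared spread, the count of members stayed at 0 (0 unadjusted) and 0.0538% of all models passed. Plk2 and Ccng1 were higher in both PARP14 libraries than in both Con libraries, Mdm2 was lower, and 7 overlapped, against 27.5% of all models without overlap.

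The interaction asks whether the OGD difference itself differed between the plasmid labels. It was -0.42 for Plk2 (SE 0.30), -0.71 for Gdf15 (SE 0.75), -0.40 for Ccng1 (SE 0.35), -0.31 for Trp53inp1 (SE 0.28), 0.21 for Mdm2 (SE 0.17) and 0.49 for Plk3 (SE 0.36), each with a limma adjusted p of 0.824. The other 4 lay between -0.20 and 0.22, with limma adjusted p-values of 0.829 to 0.962. No member passed, none had an unadjusted p under 0.05, and 0.00897% of all models passed. Without OGD_PARP14 replicate 2 the interaction was -0.09 for Plk2 and 0.19 for Gdf15, again with 0 members called (0 unadjusted) beside 0.0807% of all models. Without replicate 1 the same 5 genes as above passed, at -0.75 for Plk2, -1.60 for Gdf15, -0.79 for Ccng1, -0.61 for Trp53inp1 and 0.88 for Plk3 (limma adjusted p from 0.00441 to 0.0229), beside 29.6% of all models.

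The rest of the p53 pathway was read from 3 lists of 60 genes in all, which hold other p53 targets, regulators of p53 and damage kinases, and relatives of the 10 genes. Of these 45 could be tested, and the other 15 were too low. The lists were drawn up with earlier results of these data known. Their p-values and calls in the OGD comparisons are therefore descriptive and no independent support. With all libraries 1 of the 45 passed in OGD_Con against Con, where 0.269% of all models tested did. Btg1, a relative of Btg2 that likewise slows proliferation, rose by 0.97 (SE 0.10, limma adjusted p = 0.0478), to 23.8 and 26.4 FPKM in OGD_Con, against 12.4 and 12.3 in Con. This call was lost with a replicate block, with a pseudocount of 0.1 and when any 1 library of OGD_Con, PARP14 or Con was left out. In OGD_Con against Con, Btg1 and Btg2 had opposite signs. Next by p were the cyclin Ccng2 at 0.99 and Pml, the scaffold of nuclear bodies, at -1.67 (limma adjusted p = 0.0655 for both), and the growth arrest gene Gadd45a at 3.25 (0.0894).

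In OGD_PARP14 against PARP14 none of the 45 passed with all libraries, where 0.215% of all models did. An unadjusted p under 0.05 was found for 10 of the 45 and for 1617 of all 11146 models. The smallest p-values were those of Btg1 at 0.85 (limma adjusted p = 0.0627), Ccng2 at 0.79 (0.113), the deubiquitinase Usp7 at -0.40 (0.198) and the repair gene Xpc at -0.34 (0.238). OGD_PARP14 replicate 2 lay outside the other 3 OGD libraries for 40 of the 45 genes, beside 84.1% of all models tested. Ddit4, an inhibitor of mTORC1, held 71.1 and 0.701 FPKM in OGD_PARP14 and 71.4 and 80.1 in OGD_Con, against 35.7 and 40.4 in PARP14 and 34.4 and 39.5 in Con. That single library was far below every other for this gene. Gadd45a held 33.8 and 8.05 FPKM in OGD_PARP14 and 39.3 and 52.4 in OGD_Con, against 4.72 and 4.72 in PARP14 and 4.60 and 3.22 in Con. Plk1, the mitotic relative of Plk2, held 0.125 and 5.61 FPKM in OGD_PARP14, the second of these standing alone, since no other library exceeded 0.497. Ddit4 and Plk1 were singled out after their values were seen.

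Without OGD_PARP14 replicate 2, 8 of the 45 rose and 3 fell in OGD_PARP14 against PARP14, beside 10.7% of all models, with replicate 1 as the only OGD_PARP14 library. Those with the largest changes were Gadd45a at 2.60 (SE 0.23, limma adjusted p = 0.00704), the pro-apoptotic Bbc3 (Puma) at 1.78 (SE 0.17, 0.00788), the autophagy regulator Dram1 at -1.11 (SE 0.17, 0.0225), Btg3 at 1.09 (SE 0.13, 0.0126) and Pml at -1.05 (SE 0.13, 0.0153). Ddit4 at 0.89, Ccng2 at 0.85, Btg1 at 0.82, the death receptor Fas at 0.77 and the cell cycle inhibitor Cdkn1b (p27) at 0.73 also rose, with limma adjusted p-values of 0.0129 to 0.0395. In OGD_Con against Con 14 rose and 6 fell, beside 23.1% of all models. Gadd45a was at 3.25 (SE 0.19, limma adjusted p = 0.00160), Bbc3 at 1.82 (SE 0.14, 0.00266), Pml at -1.67 (SE 0.11, 0.00197), Btg3 at 1.07 (SE 0.10, 0.00474) and Dram1 at -1.04 (SE 0.14, 0.00925). Ddit4 at 1.02, Ccng2 at 0.99, Btg1 at 0.97 and Cdkn1b at 0.80 rose as well (limma adjusted p from 0.00308 to 0.00897), and Sfn, also known as 14-3-3 sigma, fell by 0.79 (limma adjusted p = 0.0345).

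By list, without that replicate, 7 of 27 other p53 targets rose and 4 fell in OGD_Con against Con, beside 23.1% of all models called. Of 12 regulators 3 rose and 2 fell in that comparison, and of 6 relatives 4 rose and 0 fell. The median log2 difference of the other targets was 0.22 in OGD_PARP14 against PARP14 and 0.20 in OGD_Con against Con, that of the regulators was 0.10 and 0.06, and that of the relatives was 0.78 and 0.88. Over all models tested it was -0.01 and -0.02. With all libraries the medians in OGD_PARP14 against PARP14 were -0.08 for the other targets, of which 12 of 27 were above 0, -0.01 for the regulators and 0.50 for the relatives, against -0.07 over all models, so that the sign for the other targets and the regulators turned on that library. Genes of each direction stood side by side among the other targets.

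**Figure D4:**
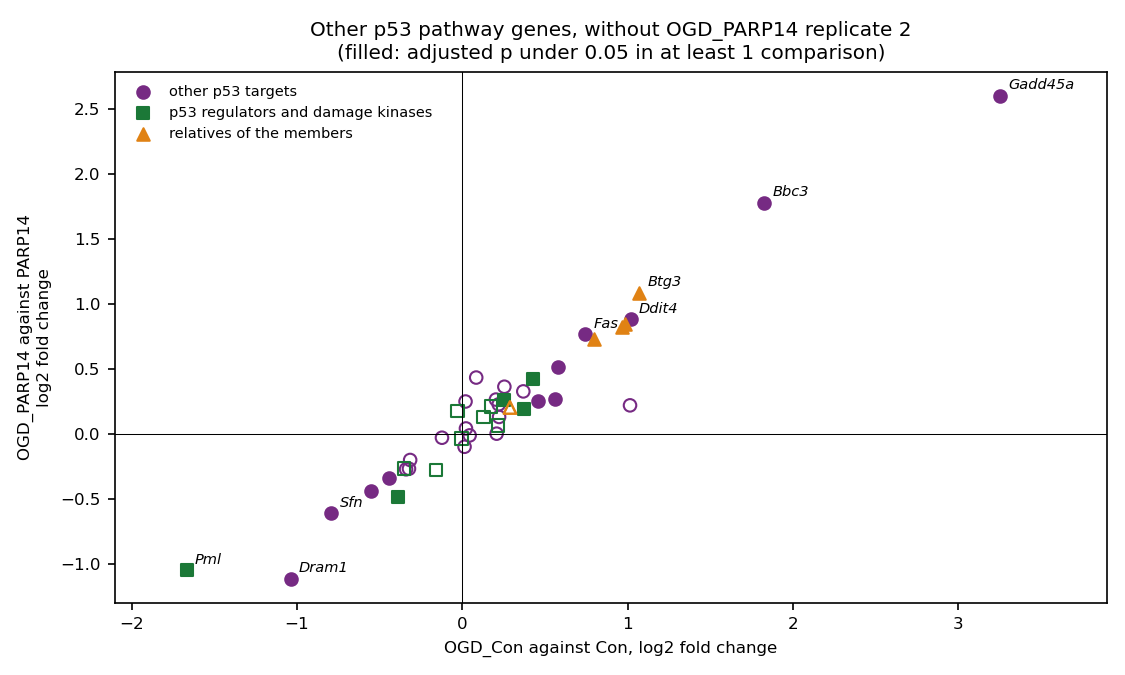
Log2 fold changes of 45 other p53 pathway genes without OGD_PARP14 replicate 2, in OGD_Con against Con (horizontal axis) and OGD_PARP14 against PARP14 (vertical axis). Circles are other p53 targets, squares regulators and triangles relatives, filled where the limma adjusted p was under 0.05 in at least 1 of these comparisons. Gadd45a is farthest to the upper right at 3.25 and 2.60, and Pml and Dram1 lie at the lower left.

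Between the plasmid labels no gene of the lists passed with all libraries. In OGD_PARP14 against OGD_Con with all libraries 2 of the 45 had an unadjusted p under 0.05, and the nearest were the ubiquitin ligase Rchy1 at -0.40, Pml at 0.58, Gadd45a at -1.39 and Phlda3 at -0.51 (limma adjusted p = 0.571 for each). In PARP14 against Con 0 had an unadjusted p under 0.05, and the nearest were Apaf1 at -0.33, Pml at -0.38, Atm at -0.16 and Rchy1 at -0.14 (limma adjusted p = 1 for each). In the interaction 1 had an unadjusted p under 0.05, and the nearest were Pml at 0.96, Gadd45a at -1.62, Phlda3 at -0.64 and Atm at 0.27 (limma adjusted p = 0.824 for each). Over all 11146 models, 387 had an unadjusted limma p under 0.05 in OGD_PARP14 against OGD_Con with all libraries. The numbers were 110 in PARP14 against Con and 211 in the interaction. Without OGD_PARP14 replicate 2 none passed in these 3 comparisons and 1 of the 45 had an unadjusted p under 0.05 in each, and without replicate 1 the calls were 23 of 45 in OGD_PARP14 against OGD_Con, beside 41.8% of all models, and 15 of 45 in the interaction, beside 29.6%.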

How the data were processed

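The deposited table holds FPKM per gene model and library. Per the labels' protocols, poly(A) RNA gave stranded libraries with molecular identifiers, sequenced in pairs. Per the submitters' processing notes, reads went through HISAT, StringTie and edgeR with the build mm9, and no versions are listed. The models' coordinates are those of GRCm38, since 37538 of 39015 Ensembl models (96.2%) have their GENCODE M21 position. Strand use in counting is not given in the sources used here. Fragment counts were not used here, and depth was inferred from the smallest step between values, so fragment numbers are approximate.

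A pseudocount of 1 was added to FPKM before log2. Tests covered the 11146 named models that reached 1 FPKM in 2 or more libraries, and all 10 genes were among them. limma 3.58.1 in R 4.3.3 (lmFit, then eBayes without trend or robust) fitted 4 group means to 8 libraries, with 4 residual degrees of freedom, or 3 without OGD_PARP14 replicate 2. Benjamini-Hochberg adjustment ran over all models tested, with a threshold of 0.05. The OGD comparisons share no library, whereas plasmid comparisons and the interaction reuse the same ones. Tables were prepared with pandas 2.3.3 under Python 3.11.15, and figures with matplotlib 3.10.9.

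The members and lists were chosen with earlier results of these data known. Every member was named. List genes were named where called, up to 10 per comparison by size, and otherwise the 4 with the smallest p. Alternatives were a replicate block, no filter on low values, a pseudocount of 0.1, median centring, an intensity trend, a fit of the compared libraries alone, and the omission of each library in turn. Same-numbered libraries correlated in their deviations from the group means by 0.0136 to 0.121, and the labels do not say that a number marks a shared experiment, so the numbers were not used as pairs.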

Additional observations from a re-analysis of the deposited data

Results flagged for a closer look

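Plk2 had its libraries in opposite order between the plasmid labels with and without OGD. Both OGD_PARP14 libraries, at 53.9 and 33.8 FPKM, were below both OGD_Con libraries, at 54.9 and 55.8 FPKM. Both PARP14 libraries, at 6.12 and 6.45 FPKM, were above both Con libraries, at 6.10 and 5.95 FPKM. The interaction was -0.42 log2 units with a limma adjusted p of 0.824 (SE 0.30), and -0.09 without OGD_PARP14 replicate 2. Groups without overlap were found for 32.6% of all models tested in OGD_PARP14 against OGD_Con and for 27.5% in PARP14 against Con.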

How the results depend on the processing

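With all libraries 1 list gene, Btg1, passed in OGD_Con against Con. The count was 0 with the replicate block, 0 with a pseudocount of 0.1 and 16 with only the libraries compared, and leaving out 1 library gave 0 to 20, with 20 without either OGD_PARP14 replicate. In OGD_PARP14 against PARP14 none passed, 1 did without the filter, and leaving out 1 library gave 0 to 13, with 13 without OGD_PARP14 replicate 1 and 11 without replicate 2. Leaving out 1 library gave 0 to 23 list genes and 0 to 5 members in OGD_PARP14 against OGD_Con, and 0 to 15 and 0 to 5 in the interaction, the upper values each time without OGD_PARP14 replicate 1. Over all models, OGD_Con against Con gave 30 calls, 0 with the replicate block (2029 at an unadjusted p under 0.05), 10 with a pseudocount of 0.1, 49 with an intensity trend, 74 without the filter and 1790 with only the libraries compared. OGD_PARP14 against PARP14 gave 24, 1 with the replicate block and 0 with only the libraries compared. The block changed no other count of list genes or members. The cause of these shifts was not tested.

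No member changed direction with OGD in any setting except Ccng1 in OGD_Con against Con, whose difference was near 0. Plk2 stayed at 2.99 to 3.18 in OGD_Con against Con and 2.25 to 2.91 in OGD_PARP14 against PARP14, and Gdf15 at 3.10 to 3.84 and 1.61 to 3.39. Plk3 came to -2.003 in OGD_Con against Con with a pseudocount of 0.1. In the plasmid comparisons, where no difference passed with all libraries, signs were not stable. Median centring gave 0.0011 for Trp53inp1 in PARP14 against Con and 0.014 for Cdkn1a in the interaction, opposite in sign to the values without it. Leaving out 1 library in turn gave, for PARP14 against Con, ranges of -0.11 to 0.13 for Btg2, -0.064 to 0.21 for Cdkn1a, -0.17 to 0.041 for Gdf15, -0.21 to 0.079 for Plk3, -0.056 to 0.069 for Sesn1, -0.15 to 0.039 for Trp53 and -0.045 to 0.033 for Trp53inp1. For OGD_PARP14 against OGD_Con they were -0.070 to 0.53 for Btg2, -0.75 to 0.020 for Ccng1, -0.035 to 0.13 for Cdkn1a, -1.66 to 0.12 for Gdf15, -0.0048 to 0.22 for Mdm2, -0.43 to 0.036 for Sesn1 and -0.0045 to 0.043 for Trp53. For the interaction they were -0.078 to 0.52 for Btg2, -0.16 to 0.11 for Cdkn1a, -1.60 to 0.19 for Gdf15, -0.44 to 0.030 for Sesn1 and -0.020 to 0.17 for Trp53. Counting error limits most the levels of Plk3, with about 18 to 110 fragments in each library, and of Gdf15 without OGD, with about 26 to 37.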
